A study of Mus musculus with 15 samples.

Results

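The hearts of female (XX) C57BL/6 mice were compared after 5 months of weekly injections of methamphetamine (meth) or of phosphate-buffered saline (PBS). The 7 female arrays, 4 meth and 3 PBS, were chosen by their sample labels from the 15 arrays of the series, and the 8 male arrays are used only where the female response is set against the male one. By their titles the female mice belong to trial 1 and the male mice to trials 1 and 2, which are pooled here. The mice were 8 to 10 weeks old at the start, and all injections were intraperitoneal. The meth groups received methamphetamine hydrochloride in PBS, a dose that went up by 2 mg each week until it stood at 40 mg/kg in week 20, and the PBS groups received the vehicle on that schedule. All mice were of the same strain, with no transgene or deletion named in the labels. Heart tissue was homogenized, so each value averages over every cell type of the organ and whatever was dissected with it. RNA of 1 mouse was hybridized to each Agilent array, which reports the brightness of Cy3-labeled RNA bound to each probe.

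Meth is a stimulant that raises catecholamines at nerve endings, and these act on the adrenergic receptors of the heart. Heart muscle meets such loads with several inducible programs. Heat shock proteins and their J-domain partners refold damaged proteins and are switched on by the transcription factor HSF1. Clock genes cycle over the day in the heart as in other organs, with the repressors and output genes in antiphase to Arntl, the gene for the activator BMAL1. Glucocorticoid-induced genes, immediate early genes, the endoplasmic reticulum stress pathway and the antioxidant genes under NRF2 answer other kinds of stress. Fibrosis genes, the fetal gene program and the contractile and metabolic genes are those usually followed in cardiomyopathy.

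The signal of each probe is given as a log2 signal relative to the 75th percentile of its own array, so that 0 equals that percentile. Of 41174 probes, 24593 (59.73%) were well above background on all 7 female arrays, 27864 on at least 3, and 10779 on none. The 27864 probes were tested, and for 14143 genes the brightest probe stands for the gene. This percentile lay at an intensity of 306.9 to 329 on the 4 female arrays of slides 1 and 2, and at 438 to 589 on the 3 arrays of slide 4 (meth mice 3 and 4, and PBS mouse 3). Each of these slides held both treatments. Xist was well above background on 7 of 7 female and 0 of 8 male arrays, and Ddx3y, Eif2s3y, Kdm5d and Uty on 0 of 7 female arrays, as labeled. No pair of arrays held identical values, so 7 arrays were counted.

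Meth changed a small share of the probes in female hearts. With the slide as a block, 425 of the 27864 probes (1.53%) passed an adjusted p of 0.05, and they split into 108 that rose (0.388%) and 317 that fell (1.14%). Among the 24593 probes well above background on all 7 arrays, 389 passed (1.58%), of which 100 rose (0.407%) and 289 fell (1.18%). Most lowered probes carry no gene name, and over genes 70 of 14143 rose (0.495%) and 59 fell (0.417%). Of the 12950 genes well above background on all 7 arrays, 66 rose (0.51%) and 57 fell (0.44%). The median log2 fold change over all genes tested was 0.03, with 58.4% of genes above and 41.6% below 0. All 129 called genes moved the same way on slides 1, 2 and 4, and in 112 of them the meth and PBS arrays did not overlap. The genes were called from these same arrays with the slide as a block, so this agreement is in large part a product of the selection. Over all genes tested, the meth arrays lay entirely above the PBS arrays in 4.19% and entirely below in 2.79%. The log2 fold change exceeded 1 in 8 of the genes that rose and was under -1 in 4 of those that fell.

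The number of calls depended on the fit. With the replicate number as a block in place of the slide, 104 probes passed, with no block 62, and with the 7 female arrays alone 10. Leaving out an array lowered the count each time, to 40 without meth 1, 80 without meth 2, 201 without meth 3, 256 without meth 4, 246 without PBS 1, 53 without PBS 2 and 41 without PBS 3. Of the 50 called genes named below, 6 passed in all 7 of these fits (Hspa1a, Hspa1b, Dnaja1, Rhobtb1, Map3k6 and Mup6), Foxs1 and Gm3002 passed in 6 of them, 31 passed in 1 to 4, and 11 in 0. With the replicate block 12 of the 50 passed, namely those 8 genes with Timp3, Pthlh, Gm10406 and Gm5458. Mup6 was well above background on no PBS array, so its change rests on dim PBS signals. The balance of rise and fall also depended on the scaling: 192 probes rose and 135 fell when arrays were shifted by the median, 41 rose and 19 fell after normexp correction of the background, and 101 rose and 172 fell after quantile normalization.

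Heat shock and chaperone genes had more calls by number than any other list that was counted, while by share the smaller antiphase clock list, with 5 of 14, stood higher. Of 27 genes of the heat shock and chaperone list that were tested, all well above background on all 7 arrays, 7 rose and 0 fell, against 0.51% of all genes so measured that rose. The median log2 fold change of the list was 0.17, against 0.03 over all genes, and 23 of the 27 values were above 0, against 58.4% of all genes. The list is bright on average, with a mean log2 signal of 3.83 to 4.03 after meth and 3.59 to 3.70 after PBS. The brightest sixth of all probes had a median change of 0.07, so the share above 0 is not particular to this list. The 7 were Hspa1a and Hspa1b, which encode the inducible Hsp70, Dnaja1, Dnajb1 and Dnajb4, which encode J-domain co-chaperones of Hsp70, Hsph1, which encodes the Hsp110 nucleotide exchange factor, and Hspa8, which encodes the constitutive Hsc70. Hspa1a and Hspa1b lie next to each other on chromosome 17 and are near-identical copies, so each probe may hold signal of both transcripts. The 150 bases before their starts, read from RefSeq (GRCm38.p6), are shown with those of Dnaja1 because these 3 genes led the response; capitals mark GAANNTTC, a short form of the heat shock element that was searched on both strands after the values had been seen.

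Hspa1a (chr17:34972157-34972306, minus strand): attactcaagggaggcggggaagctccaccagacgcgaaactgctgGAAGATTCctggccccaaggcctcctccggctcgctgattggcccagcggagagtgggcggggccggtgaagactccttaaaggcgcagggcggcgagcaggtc
Hspa1b (chr17:34959239-34959388, minus strand): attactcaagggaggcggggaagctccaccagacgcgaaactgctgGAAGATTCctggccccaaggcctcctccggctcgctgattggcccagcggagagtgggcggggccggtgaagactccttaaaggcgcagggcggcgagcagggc
Dnaja1 (chr4:40722318-40722467, plus strand): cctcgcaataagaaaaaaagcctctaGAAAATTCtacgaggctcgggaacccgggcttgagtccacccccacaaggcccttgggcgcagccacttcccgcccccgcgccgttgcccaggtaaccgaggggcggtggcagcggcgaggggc

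The first pair of sequences matched at 149 of 150 positions. The short form was found between 250 bases before and 50 after the start in 4 of the 6 raised heat shock genes that have a window, in 13 of the 21 list genes with one, and in 9.04% of the 27025 genes with a window. A heat shock element of 3 repeats was found in 1 of those 6 genes (Hsph1), in 4 of the 21, and in 0.662% of all.

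For Hspa1a, the log2 signal was 1.49, 1.39, 1.35 and 1.14 on meth arrays 1 to 4 and -0.18, -0.02 and -0.25 on PBS arrays 1 to 3. The groups stood more than a log2 unit apart, and the change was 1.52 (standard error 0.10, adjusted p = 0.000267), or 2.87-fold. Within the 3 slides it was 1.40 to 1.67, and a second probe gave 1.59. Hspa1b had log2 signals of -1.15, -1.16, -1.06 and -0.76 after meth and -2.41, -2.59 and -2.53 after PBS. All meth values again lay above all PBS values, with a change of 1.46 (standard error 0.13, adjusted p = 0.00164), whereas its second probe gave 0.98 (adjusted p = 0.0737). Dnaja1 was at 3.06, 2.97, 3.11 and 2.98 after meth and at 2.26, 2.30 and 2.18 after PBS. The groups again stayed apart, a change of 0.79 (standard error 0.08, adjusted p = 0.00366), and both other probes of Dnaja1 passed with 0.71 and 0.80. An exact permutation test of each of these genes over the 7 arrays gave the smallest p that 4 against 3 allows, 0.0286. That test left out the slide. The genes were picked from called genes whose groups did not overlap, which all but fixes this p, so it adds no support.

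Changes in the other members were smaller. Hsph1 had a log2 signal of 3.07 to 3.71 after meth and 2.72 to 2.91 after PBS and rose by 0.61 (adjusted p = 0.0272). Dnajb1 rose by 0.53 (adjusted p = 0.0302), Hspa8 by 0.34 (adjusted p = 0.0348) and Dnajb4 by 0.34 (adjusted p = 0.0176), with no overlap of the groups in any of them. Second probes gave 0.51 for Dnajb1, which passed, and 0.32 for Hspa8 and 0.26 for Dnajb4, which did not. Among the 20 members that did not pass, the largest changes were 0.33 for Hspa1l, an Hsp70 expressed mainly in testis, 0.30 for Hsp90aa1, the inducible Hsp90 (adjusted p = 0.0829), and 0.29 for Hspb1, a small heat shock protein. Hsf1 itself changed by -0.02 (standard error 0.07), a value whose sign turned in some fits. Without a single array the count of list genes that passed was 3 (without meth 1, meth 2, PBS 2 or PBS 3), 4 (without meth 3 or PBS 1) or 5 (without meth 4), and with the replicate block it was 3, the Hspa1a, Hspa1b and Dnaja1 genes.

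**Figure D1:**
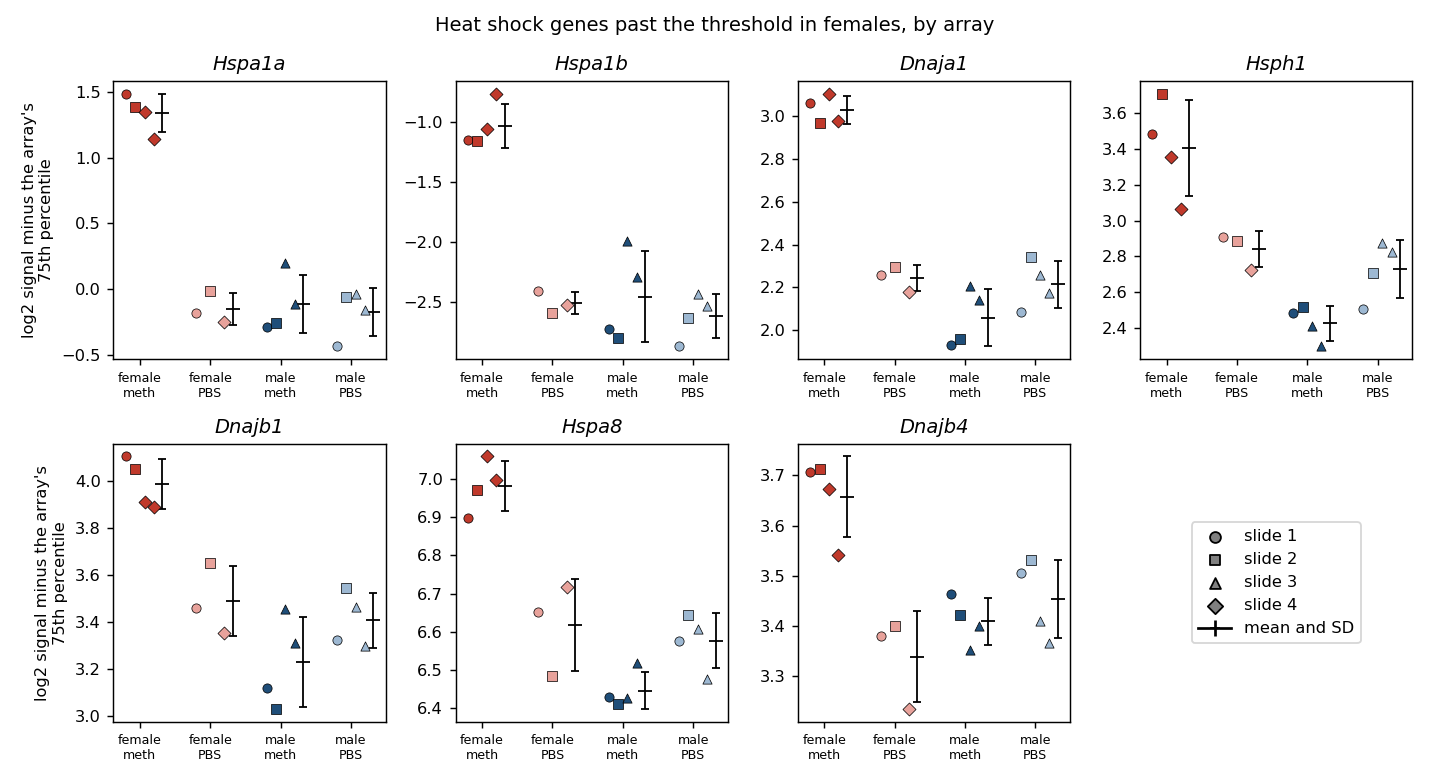
The log2 signal relative to each array's 75th percentile (vertical axis) of the 7 raised heat shock genes, with 1 point per mouse, marker shape for the slide, and bars for the mean and SD of each of the 4 groups. Female meth arrays lay above female PBS arrays in all 7 panels, and male arrays lay between -0.44 and 0.20 for Hspa1a in both treatments.

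The response of 3 heat shock genes differed between the sexes. In males the list had a median log2 fold change of -0.13, and 0 of the 27 genes passed there. Hspa1a changed by 0.06 in males (adjusted p = 0.767), Hspa1b by 0.16 and Dnaja1 by -0.16. The female response exceeded the male one by 1.46 for Hspa1a (adjusted p = 0.00554), by 1.29 for Hspa1b (adjusted p = 0.0319) and by 0.94 for Dnaja1 (adjusted p = 0.0118), and these 3 were the list genes whose difference passed. For Hsph1 the adjusted p of the difference was 0.0594. On the arrays, PBS hearts of the sexes sat close together for Hspa1a, at -0.25 to -0.02 in females and -0.44 to -0.03 in males, while the meth hearts did not overlap, at 1.14 to 1.49 in females and -0.29 to 0.20 in males. Over all probes 26 passed for the difference between the sexes (0.0933%), 11 higher (0.0395%) and 15 lower (0.0538%) in females. With the replicate block 2 probes passed, and without single female arrays 15 (meth 1), 11 (meth 2), 12 (meth 3), 12 (PBS 2) and 2 (PBS 3) did. Males of trial 2 were on slide 3, which held no females, and slide 4 held females alone. With slides 1 and 2 alone, which held both sexes, 0 probes passed in a fit chosen after seeing the data.

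Clock genes in antiphase to Arntl also rose. Of 14 tested, 5 rose and 0 fell, against 0.495% of all genes that rose, with a list median of 0.62. Of the 14 values 13 were above 0, against 58.4% of all genes, and 10 genes had meth arrays entirely above PBS arrays, against 4.19%. Per2, a repressor of the clock, had log2 signals of -0.93, -1.42, -1.10 and -0.86 after meth and -3.45, -3.05 and -2.86 after PBS. All meth arrays were higher by more than a log2 unit, a change of 2.00 (standard error 0.27, adjusted p = 0.0111). A second, separate Per2 probe gave 0.12 (adjusted p = 0.741), so the probes of this gene disagree. Tef and Hlf, PAR bZIP output factors, rose by 0.95 (adjusted p = 0.0132) and 0.91 (adjusted p = 0.0108). Tef had 3.50, 3.33, 3.39 and 3.72 after meth against 2.50, 2.44 and 2.60 after PBS, and its other probes passed with 0.60 and 0.90. Usp2, a clock-controlled deubiquitinase, rose by 0.64 (a second probe gave 0.41 and did not pass), and Cry2, a repressor, by 0.45 (a second probe of Cry2 gave 0.15 and did not pass).

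Further antiphase genes had large changes that did not pass: Ciart 2.09 (adjusted p = 0.0578), Dbp 1.18 (adjusted p = 0.0791) and Per3 1.05 (adjusted p = 0.0999). In all of them the groups did not overlap. Arntl had log2 signals of -1.65, -0.72, -0.63 and -1.57 after meth and 0.60, 0.66 and 0.75 after PBS. Every meth array was lower, and the log2 fold change of -1.83 (standard error 0.40) missed the threshold with an adjusted p of 0.0556; 0 of the 5 genes in phase with Arntl passed, with 0 up and 2 down at an unadjusted p under 0.05. The male values of the called clock genes were close to the female ones (Per2 1.97, Tef 0.87, Hlf 0.87), and 0 of the 14 differed between the sexes after adjustment. The count of 5 fell to 0 without meth 1, PBS 2 or PBS 3, to 2 without meth 2, to 3 without meth 3 or meth 4, and to 0 with the replicate block. The time of day at which each heart was taken is not given in the sources used here.

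**Figure D2:**
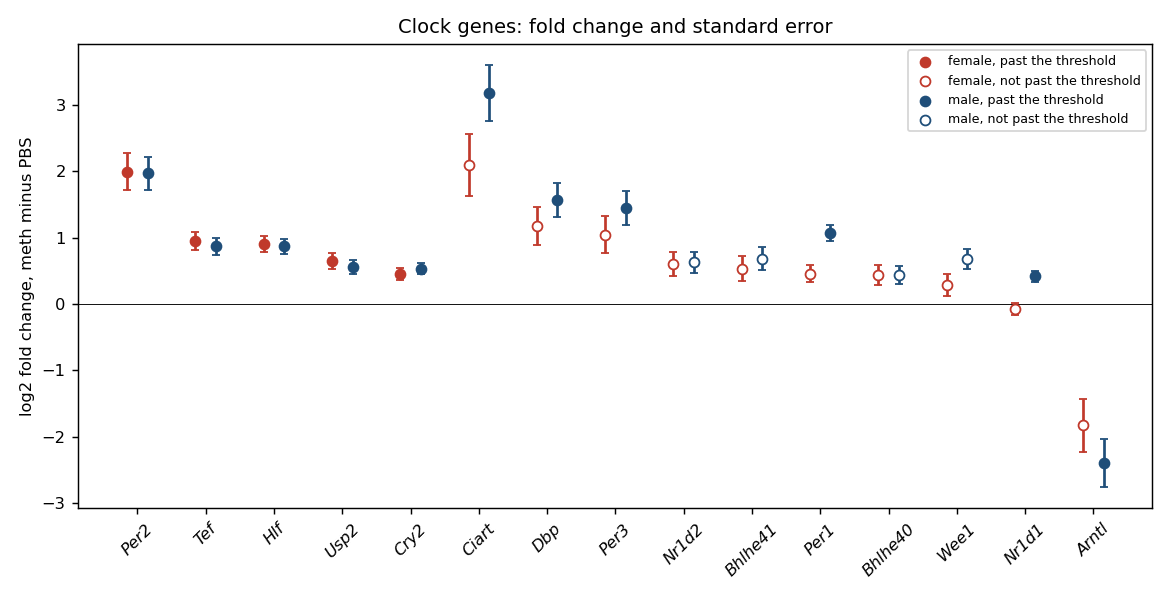
Log2 fold change of meth over PBS with its standard error for the 14 antiphase clock genes and Arntl in females and in males. Filled points passed the threshold. Female and male points lie together for Per2, Tef, Hlf, Usp2 and Cry2, and Arntl is the gene furthest below 0 in both sexes.

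The E-box CACGTG, to which BMAL1 and its partner bind, was found in the windows of 11 of the 54 raised genes that have one, 6 of the 40 lowered genes with one, 11.3% of the 11243 tested genes with one and 8.09% of all 27025. It is shown in capitals in the 150 bases before a start of Tef and of Coq10b, which belong to these 11 and whose probes all passed.

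Tef (chr15:81802523-81802672, plus strand): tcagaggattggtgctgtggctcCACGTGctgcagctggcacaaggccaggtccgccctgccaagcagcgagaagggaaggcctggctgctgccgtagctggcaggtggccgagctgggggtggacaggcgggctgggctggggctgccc
Coq10b (chr1:55052620-55052769, plus strand): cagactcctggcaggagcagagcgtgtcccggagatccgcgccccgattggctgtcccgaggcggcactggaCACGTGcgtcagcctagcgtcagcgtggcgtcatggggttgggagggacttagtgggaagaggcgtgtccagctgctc

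The other stress lists held 2 calls each, against 0.495% of all genes that rose, and Mt2 counts in a pair of them. In the glucocorticoid-induced list 2 of 21 genes rose and 0 fell (median 0.18): Map3k6, a stress kinase gene, went from 0.59, 0.59 and 0.92 after PBS to 1.27, 1.24, 1.64 and 1.52 after meth, a change of 0.66 (standard error 0.07, adjusted p = 0.00366). The second was Mt2, a metallothionein that binds zinc and copper, with a change of 0.77 (adjusted p = 0.0416). In the immediate early list 2 of 23 rose (median 0.08), Ier3 by 0.93 (adjusted p = 0.0147) and the small Maf factor Maff by 0.44 (adjusted p = 0.0284). Ier5 changed by 0.73 but had an adjusted p of 0.0740. The endoplasmic reticulum stress list had 2 of 25 genes that rose (median 0.14), Ddit3, which encodes CHOP, by 0.43 (adjusted p = 0.0318) and the pseudokinase gene Trib3 by 0.37 (adjusted p = 0.0459; a second probe gave 0.22 and did not pass). Herpud1, which acts in the degradation of endoplasmic reticulum proteins, changed by 0.49 (adjusted p = 0.0630) and Hspa5, which encodes the chaperone BiP, by 0.41 (adjusted p = 0.235), and neither passed.

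All 30 antioxidant, glutathione and metallothionein genes had values above 0, against 58.4% of all genes, with a median of 0.11. This list is also bright on average (mean log2 signal 3.61 to 3.74 after meth), and the brightest sixth of all probes had a median of 0.07. Of the 30, 2 rose, against 0.495% of all genes. Nfe2l2, which encodes NRF2, had log2 signals of 3.12 to 3.31 after meth and 2.84 to 2.94 after PBS, a change of 0.35 (standard error 0.06, adjusted p = 0.0257), and a second probe gave 0.37. Mt2 was the other. Hmox1, a heme-degrading enzyme, changed by 0.38 and Mt1 by 0.32, neither past the threshold, although the groups did not overlap in either. When arrays were shifted by the median, the median change of all probes was 0.08 in place of -0.00226, against which small changes of one sign in a list are to be read.

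Genes of the extracellular matrix moved in both directions. Among proteases and their inhibitors 2 of 24 rose and 1 fell, against 0.495% and 0.417% of all genes. Timp3, a metalloproteinase inhibitor bound to the matrix, had log2 signals of 4.86, 4.64, 4.83 and 4.95 after meth and 4.21, 4.08 and 4.40 after PBS. It was higher on every meth array, by 0.56 (standard error 0.07, adjusted p = 0.00932). Adamts4, an aggrecan-cleaving protease, was well above background on 3 of 3 PBS arrays and 0 of 4 meth arrays and was at least 2.17-fold lower after meth (group means -6.32 and -4.27, adjusted p = 0.0227), although normexp correction, which lifts dim signals, gave 0.01. Col5a3, a chain of collagen V, was the 1 of 18 collagen genes that passed, against 0.912% of all genes. It fell from 2.28, 2.44 and 2.57 to 1.19, 1.66, 2.07 and 1.44, a change of -0.89 (standard error 0.16, adjusted p = 0.0284), but a second probe gave -0.17 and did not pass.

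In the matricellular and TGF-beta list 1 of 31 genes rose and 1 fell, against 0.495% and 0.417% of all genes. Smad7, the inhibitory Smad, rose by 0.42 (adjusted p = 0.0398), and Smad3, which carries the TGF-beta signal, fell by 0.40 (adjusted p = 0.0483), with -1.19 by a second probe that did not pass and -0.23 after normexp correction, which did not pass either. The meth and PBS arrays overlapped for Smad7. The collagen list as a whole had a median of -0.02, with 8 values above and 10 below 0. Col4a1, a chain of basement membrane collagen, changed by -0.50 (adjusted p = 0.112), but a second probe gave -0.13. Eln, which encodes elastin, changed by -0.60 (adjusted p = 0.144). Timp1 and Ccn2 changed by 0.84 and 0.73 and did not pass (adjusted p = 0.267 and 0.322).

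Other large rises were found among genes well above background on all 7 arrays. Mup1, a major urinary protein gene, rose by 2.87 (standard error 0.57, adjusted p = 0.0415), with 1.78 to 2.2 after meth and -1.19 to -0.35 after PBS. Mthfd1l, a mitochondrial enzyme of folate metabolism, rose by 1.41 (adjusted p = 0.0194), from -3.06 to -2.55 after PBS to -2.05 to -0.96 after meth. Rhobtb1, an atypical small GTPase gene, had 4.47, 4.61, 4.34 and 4.16 after meth and 3.63, 3.57 and 3.28 after PBS, a change of 0.95 (standard error 0.09, adjusted p = 0.00366) that a second probe gave as 0.86. Fam107a rose by 0.96, Coq10b, which encodes a coenzyme Q binding protein of mitochondria, by 0.86 with both other probes past the threshold, and Pthlh, which encodes parathyroid hormone-related protein, by 0.84. Rhobtb1 was among the genes that passed without each array in turn, and Mup1 was not past the threshold in any of those fits. In males Mup1 changed by 2.94, Mthfd1l by 1.57, Rhobtb1 by 0.83 and Fam107a by 0.96. The male Mup1 means were -2.75 after meth and -5.68 after PBS, both below the female PBS mean of -0.84, so the male change starts from a dim signal.

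Among lowered genes well above background on all 7 arrays, Sftpc and Spon2 changed most. Spon2 encodes a secreted matrix protein, and its log2 signal was -0.57, -0.33, -0.38 and -0.72 on the meth arrays and 1.64, 1.22 and 1.38 on the PBS arrays. The groups were separated by more than a log2 unit, a change of -1.90 (standard error 0.26, adjusted p = 0.0115) or 3.73-fold lower, and a second probe gave -1.95. In males it changed by -1.83. Sftpc, the surfactant protein C gene of the lung, fell by 2.03 (standard error 0.30, adjusted p = 0.0147), from -2.25, -0.63 and -1.93 after PBS to -3.98 to -3.48 after meth, but normexp correction gave -0.72 and it did not pass. Another surfactant gene, Sftpd, changed by -2.06 without passing (adjusted p = 0.139). Both belong to the epithelial list, of which 16 of 30 genes were tested, 12 were below 0 (against 41.6% of all genes) and Sftpc alone passed. The mean log2 signal of that list was -2.87 to -2.37 after meth and -2.46 to -2.09 after PBS, and the part of lung tissue in these values was not tested.

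The other lowered genes named by size changed by less than 1 log2 unit. They were the metalloprotease gene Adam19 (-0.92, and -1.08 and -0.84 by other probes), the zinc finger gene Zc3h3 (-0.93, but -0.02 by another probe), the vasopressin receptor gene Avpr1a (-0.83), the forkhead factor gene Foxs1 (-0.82), the kinase anchoring gene Akap5 (-0.81), the transcription repressor gene Prdm1 (-0.78), Rasl11a (-0.77), Rrad (-0.72), and Rab37 (-0.68, and -0.90 by another probe). After normexp correction of the background, Avpr1a gave -0.03, Rasl11a -0.07, Rab37 -0.10, Prdm1 -0.19, Zc3h3 -0.25, Akap5 -0.50 and Adam19 -0.68, none of which passed, while Foxs1 (-0.59) and Rrad (-0.73) passed. Foxs1 had log2 signals of -0.67, -0.87, -0.72 and -0.64 after meth and 0.00, 0.18 and 0.09 after PBS (adjusted p = 0.00743). Rrad encodes a small GTPase that restrains the L-type calcium channel of heart muscle, and its log2 signal was 1.93, 2.08, 2.33 and 1.99 after meth against 3.02, 2.52 and 2.80 after PBS (adjusted p = 0.0282). Gm3002, Gm10406 and Gm5458 are predicted genes of related sequence families, so their probes may read more than 1 transcript, and they fell by 0.85, 0.75 and 0.69. After normexp correction the 3 gave -0.42, -0.39 and -0.14 and did not pass. Il12rb1, a receptor subunit for interleukins 12 and 23, was well above background on 3 of 3 PBS and 0 of 4 meth arrays, at least 1.53-fold lower (group means -5.68 and -4.69, adjusted p = 0.0340), but normexp correction gave 0.09.

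Most of the lowered probes were dim and had no gene name. Of the 317 that fell, 87 had a name through RefSeq, against 96 of the 108 that rose. Among the others, 181 carried an accession of a full-length cDNA clone (AK series), and such probes made up 3460 of those tested, of which 5.23% fell and 1 probe rose. The named probes fell in 0.416% of 20938 cases. The AK probes were dimmer, with a median log2 signal of -3.26 against -0.51 for named probes, and their median log2 fold change was -0.21 against 0.01.

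The change followed brightness over all probes. From the dimmest to the brightest sixth of the 27864 probes, the median log2 fold change went from -0.13 through -0.085, -0.04, -0.0023 and 0.03 to 0.07, and the numbers that fell were 51, 102, 93, 50, 17 and 4. The numbers that rose were 7, 6, 19, 20, 32 and 24. Within slides the dimmest sixth had medians of -0.02 on slide 1, -0.21 on slide 2 and -0.16 on slide 4. Quantile normalization brought the medians of the sixths to between -0.02 and 0.01, and 172 probes still fell, of which 171 were among the 317. With normexp correction 19 fell, 17 of them shared. The 317 lowered probes had a median change of -0.52 on slide 1, -0.67 on slide 2 and -0.52 on slide 4, and all 317 were lower after meth on each of them. They were called from these same arrays, so a shared sign on the slides is in large part a product of the selection. The male median of the 317 probes was -0.18.

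**Figure D3:**
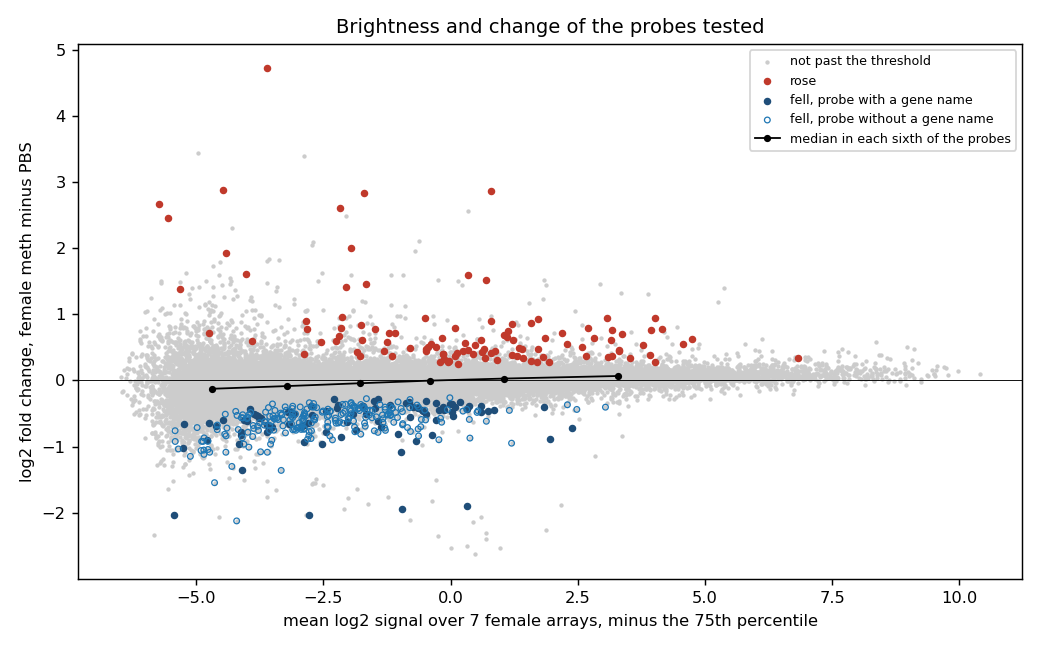
Log2 fold change of meth over PBS in females (vertical axis) against the mean log2 signal over the 7 female arrays (horizontal axis), with 1 point per probe tested. The probes that fell, most of them open circles without a gene name, lie left of those that rose, and the black line of medians runs from -0.13 in the dimmest sixth to 0.07 in the brightest.

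The lists that cover heart muscle and its regulation had 0 calls by limma's test, against 0.912% of all genes called. At that share lists of this size would hold few calls. Rrad, called above, is in none of them. In the lists for contraction (20 genes), calcium cycling (17), potassium and sodium channels with connexins (23), the fetal and stress program (13), adrenergic signaling (23) and the renin-angiotensin, endothelin and nitric oxide systems (15), 0 genes passed, and 9 were up and 6 down at an unadjusted p under 0.05. List medians ran from -0.02 for the channels to 0.24 for the fetal program. Among the members with large values were 0.48 for Tcap, the titin cap (adjusted p = 0.137), -0.35 for Slc8a1, the sodium-calcium exchanger (adjusted p = 0.241), -0.84 for the potassium channel gene Kcnd3 (adjusted p = 0.214), and 0.40 for Myh7, the slow myosin heavy chain (adjusted p = 0.736).

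No gene of the metabolic lists passed by limma's test, against 0.912% of all genes that did. In oxidative phosphorylation 33 of 34 genes were above 0, with a median of 0.12, and 0 passed, although 8 were up at an unadjusted p under 0.05. Ndufs4, a subunit of complex I, changed by 0.45 (adjusted p = 0.138), Cox6c of complex IV by 0.39 and Uqcrc2 of complex III by 0.37. Cytosolic ribosomal proteins were above 0 in 31 of 31 genes (median 0.08), the tricarboxylic acid cycle in 15 of 16 (0.07), and the proteasome in 28 of 31 (0.08), each with 0 genes passed and together 2 up at an unadjusted p under 0.05. These genes are bright, and the brightest sixth of all probes had a median of 0.07. In males the median of the oxidative phosphorylation list was -0.14, with 0 genes whose difference between the sexes passed. Values above 0 were found in 16 of 22 genes of fatty acid oxidation (median 0.06), 19 of 25 of glucose use (0.07), 10 of 20 of the fasting-type PPAR-alpha response (0.01) and 8 of 23 of cholesterol and fatty acid synthesis (-0.03), against 58.4% of all genes. These lists had 0 calls, with 3 genes up and 3 down at an unadjusted p under 0.05, and the largest value in them was 1.51 for the desaturase gene Scd1 (adjusted p = 0.238).

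The lists of inflammation and leukocyte genes had 0 calls by limma's test, against 0.912% of all genes called. In the cytokine list (23 genes, 7 up and 0 down at an unadjusted p under 0.05) Il6 was well above background on 4 of 4 meth and 0 of 3 PBS arrays and at least 3.71-fold higher (group means -3.34 and -5.56), with an adjusted p of 0.109. Its log2 signal was -2.04, -3.97, -4.80 and -2.56 after meth, so mice 1 and 4 stood above mice 2 and 3. The acute-phase gene Saa3 had the same order, with 0.34 and 0.19 in meth mice 1 and 4 and -2.27 and -2.40 in mice 2 and 3 against -4.33 to -2.22 after PBS. So did Spp1, which encodes osteopontin, and the B cell chemokine gene Cxcl13, whose changes of 2.04 and 2.11 had adjusted p of 0.132 and 0.130. Markers of B cells (11 of 12 below 0, median -0.40), of T and NK cells (19 of 21, -0.19), MHC class II genes (8 of 9, -0.32) and interferon-stimulated genes (23 of 30, -0.09) had values mostly below 0, against 41.6% of all genes, with 0 genes passed and together 6 down at an unadjusted p under 0.05. The macrophage and neutrophil list had 15 of 21 genes above 0 (median 0.07, 2 up and 0 down at an unadjusted p under 0.05) and the chemokine list 16 of 28 (median 0.07, 4 up and 3 down). Over all genes 58.4% were above 0. Cd247, the T cell receptor zeta chain, changed by -0.87 (adjusted p = 0.0649; -0.06 after normexp correction) and Cd22, a B cell receptor regulator, by -1.02 (adjusted p = 0.0576; 0.18 after normexp correction). In tissue samples fewer cells of a type and less RNA per cell cannot be told apart.

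**Figure D4:**
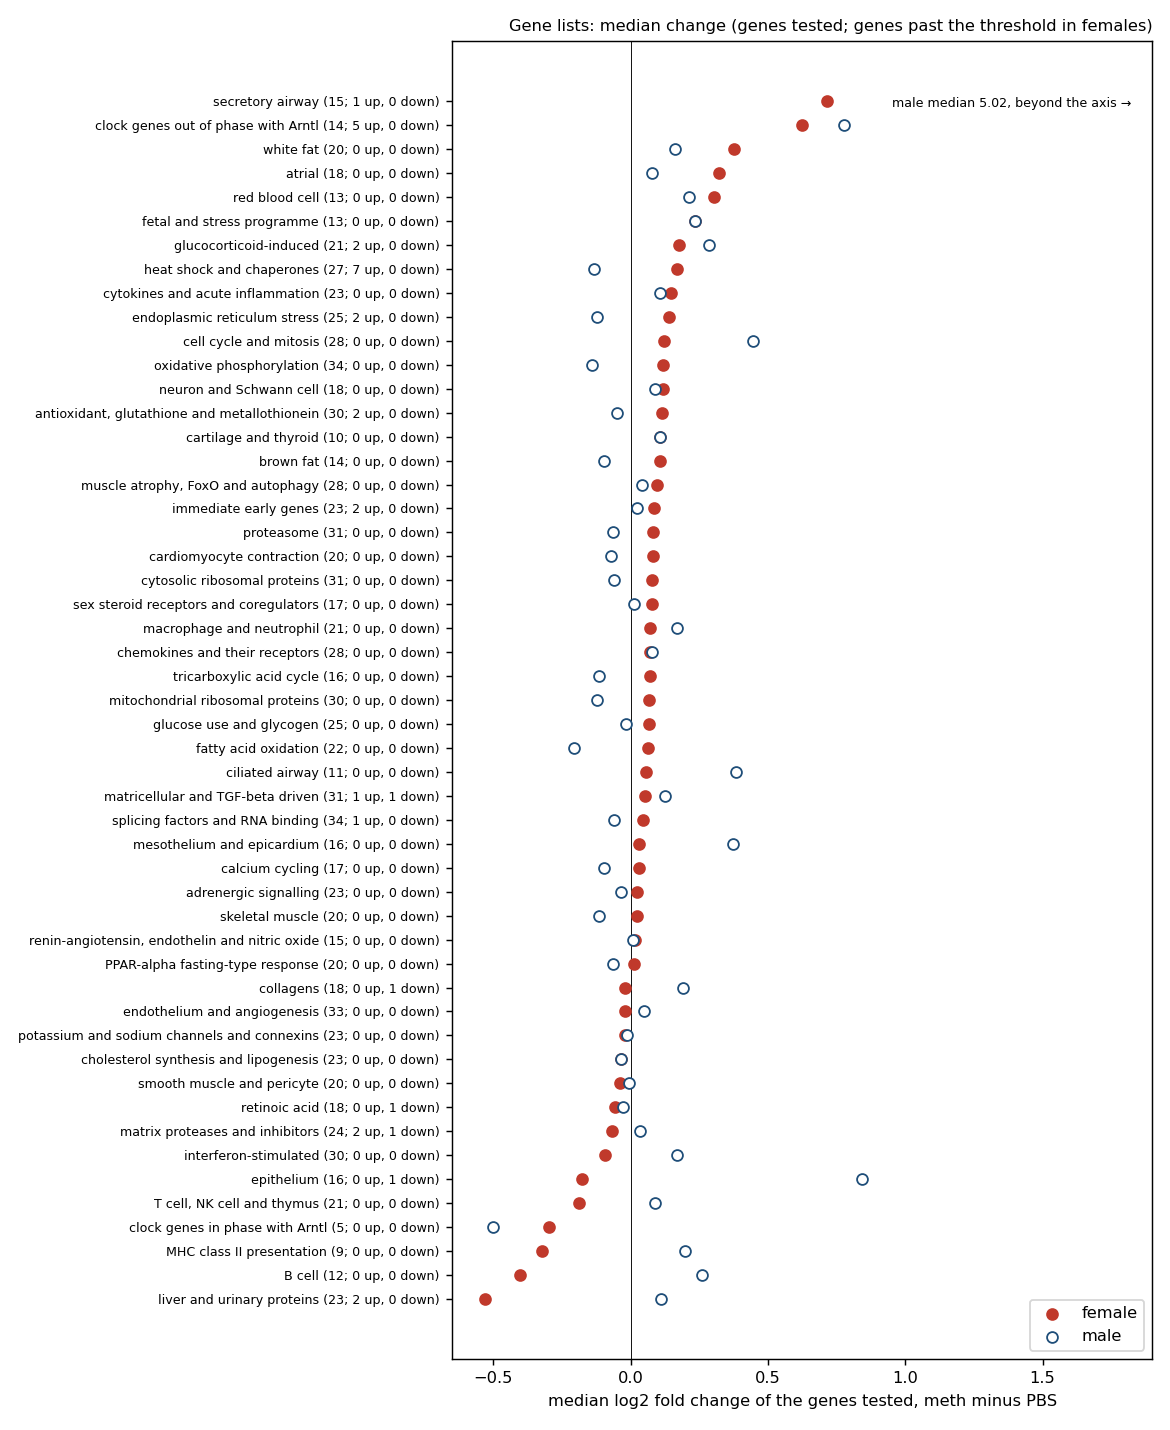
Median log2 fold change of meth over PBS for each of the 51 gene lists in females (filled) and males (open, with 1 value beyond the axis printed as text), with the number of genes tested and the numbers that passed in females beside each name. The antiphase clock list (0.62), white fat (0.38) and atrial genes (0.32) lie right of 0 in females, and B cell (-0.40) and liver genes (-0.53) lie left.

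No gene of the white fat and atrial marker lists passed by limma's test, against 0.912% of all genes that did. In the white fat list 19 of 20 genes were above 0, against 58.4% of all genes, with a median of 0.38. In this list 12 genes had meth arrays entirely above PBS arrays, against 4.19% of all genes, but 0 passed and 8 were up at an unadjusted p under 0.05. The mean log2 signal of its 20 genes was 2.24 to 2.61 on meth arrays and 1.65 to 2.01 on PBS arrays, without overlap. Cfd (adipsin) changed by 1.40 (adjusted p = 0.0903), Cidec, a lipid droplet protein, by 1.46 (adjusted p = 0.131) and Retn (resistin) by 1.45 (adjusted p = 0.164). Atrial genes were above 0 in 17 of 18 cases, against 58.4% of all genes (median 0.32, 7 up at an unadjusted p under 0.05, 0 passed). Their mean log2 signal was 2.67 to 2.96 after meth and 2.19 to 2.60 after PBS. Myl1, a myosin light chain gene held by both the atrial and the skeletal muscle list, changed by 0.65 (adjusted p = 0.0658). The part of fat and atrial tissue in the gene changes above was not tested.

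In the secretory airway list 1 of 15 genes tested rose, against 0.495% of all genes. It was Bpifa1, which encodes a secreted protein of the upper airway. Its probe met the detection filter through the meth arrays alone, so this count is not an even comparison with that share. Bpifa1 had log2 signals of -0.35, -3.03, -2.71 and -0.16 after meth, was well above background on 0 of 3 PBS arrays, and was at least 13.3-fold higher after meth (group means -1.56 and -6.34, adjusted p = 0.0198), while normexp correction gave 1.95 (adjusted p = 0.177). Mice 1 and 4 were again the higher ones. Reg3g, an antimicrobial lectin, was well above background on 3 of 4 meth and 0 of 3 PBS arrays and at least 3.49-fold higher (group means -3.49 and -6.95), but did not pass (adjusted p = 0.0576). Scgb1a1, the marker of airway club cells, was well above background on all 7 arrays, at -1.90 to 0.0049 after meth and -0.04 to 1.17 after PBS, a change of -1.51 (adjusted p = 0.265). Female hearts thus held this airway transcript in both treatments, and 13 of the 15 list genes were above 0, against 58.4% of all genes. Of 22 list genes on the array 15 were tested, and 10 were well above background on all 7 arrays. A gene that was tested through its meth arrays alone, such as Bpifa1, tends to a value above 0. The share above 0 is therefore not an even comparison. The mean log2 signal of the list was -1.76 to -0.42 after meth and -2.26 to -1.81 after PBS. Airway markers moved far more in males (median 5.02), and of the 13 genes whose response differed between the sexes 6 belong to secretory airway or lung: Scgb1a1, Cyp2a5, Cyp2a4, Bpifa1, Ltf and Sftpd, by -10.80 to -5.89. Dynlrb2, a dynein light chain gene of ciliated cells, differed as well, by -3.89.

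Liver genes were at -0.53 in the median, with 15 of 23 below 0, against 41.6% of all genes, but the major urinary protein genes of the list rose or had high values. By limma's test 6 were up and 6 down at an unadjusted p under 0.05. Of the 23 genes, 15 were well above background on all 7 arrays. The list is dim, with a mean log2 signal of -2.85 to -2.41 after meth and -3.40 to -2.17 after PBS. In this range the median change over all probes was below 0. Mup6 was well above background on 4 of 4 meth and 0 of 3 PBS arrays, at least 4.28-fold higher (group means -3.19 and -6.20, adjusted p = 0.00366), and its response exceeded that of males by 3.05 (adjusted p = 0.0331). The male group means were -7.44 after meth and -7.27 after PBS, below the female PBS mean. The difference between the sexes thus rests on dim signals in female PBS hearts and in both male groups. Mup4 and Mup5 changed by 2.56 and 1.59 without passing, and Cyp2e1, an ethanol-metabolizing enzyme, by 1.52 (adjusted p = 0.0968). Mup genes are near-identical copies, so their probes may read one another's transcripts. The transcript 9330159F19Rik rose as well, well above background on 3 of 4 meth and 0 of 3 PBS arrays, at least 1.46-fold (group means -4.74 and -6.09, adjusted p = 0.0201).

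The remaining lists held at most single calls, against 0.912% of all genes called. Rdh5, a retinol dehydrogenase, fell by 0.43 (adjusted p = 0.0428) as the only call among 18 retinoic acid genes, where Rarres1 changed by -0.46 (adjusted p = 0.0578). Cyp26b1, which breaks retinoic acid down, had log2 signals of -0.43, 0.52, -0.04 and -0.93 after meth and 4.68, 2.22 and 0.76 after PBS. All meth arrays were lower, but the 3 PBS arrays were spread over nearly 4 log2 units, and the change of -2.54 (standard error 0.69) did not pass (adjusted p = 0.105). Tra2b, a splicing activator, rose by 0.29 (adjusted p = 0.0481) among 34 splicing genes. Of 33 endothelial genes (4 up and 3 down at an unadjusted p under 0.05) and 17 sex steroid receptor and coregulator genes (0 up and 1 down) 0 passed, with the largest endothelial value -0.55 for the apelin receptor gene Aplnr (adjusted p = 0.106), and 0.40 for the estrogen receptor gene Esr1 (adjusted p = 0.502).

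Most called genes had the same sign in both sexes. The 108 raised probes, which were chosen by their female values, had a median of 0.57 in females and 0.29 in males, and the 317 lowered probes had -0.57 and -0.18. Of the 129 genes called in females, 109 had the same sign in males, 41 were called there too (1.78% of all genes were), and 5 had a response that differed between the sexes after adjustment: Bpifa1, Mup6, Hspa1a, Hspa1b and Dnaja1. Over all genes tested 13 differed (0.0919%), 5 higher (0.0354%) and 8 lower (0.0566%) in females. Beyond the airway, lung, ciliated cell, heat shock and urinary protein genes named above, these were 1700022A21Rik (0.63) and Stambpl1 (-0.98).

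**Figure D5:**
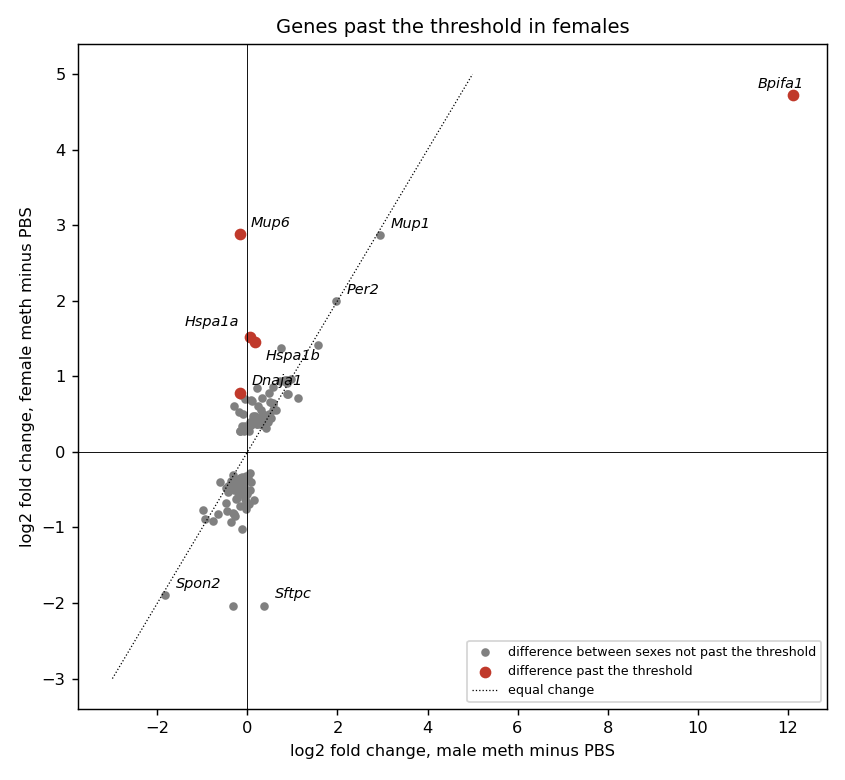
Log2 fold change in females (vertical axis) against that in males (horizontal axis) for the 129 genes called in females, with a dotted line of equal change. Per2 (2.00 and 1.97), Mup1 (2.87 and 2.94) and Spon2 (-1.90 and -1.83) lie near the line, and the 5 red points, genes whose difference between the sexes passed, lie away from it. The male Mup1 change starts from a dim PBS signal (mean -5.68).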

How the data were processed

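The authors labeled RNA from the hearts of 15 mice with Cy3 and hybridized it, 1 mouse to an array, to Agilent 4x44K mouse arrays. The deposited intensity of each spot was background-subtracted by the authors with Agilent Feature Extraction (version 9.1 in the submitters' processing notes, a later one in the file headers) and not scaled between arrays. The deposited log2 table differs from the log2 of these intensities by 1 offset per array, and it served as an alternative. Other deposited columns are flags for outlier spots and for spots well above background.

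Control spots and spots flagged as outliers were dropped, log2 spots of a probe were averaged, and the 75th percentile of the array was subtracted. On the female arrays 62.1% to 71.4% of probes were well above background. Probes were named by accession through RefSeq (GRCm38.p6), which gave 27196 probes and 18535 genes. limma 3.58.1 (lmFit and eBayes, R 4.3.3) fitted all 15 arrays with the 4 sex and treatment groups and the slide as a fixed block, leaving 8 residual degrees of freedom. A probe was tested if 3 or more of the 7 female arrays measured it well above background. A probe could thus enter through a single group. Bpifa1, Mup6 and 9330159F19Rik entered through meth arrays alone, and Adamts4 and Il12rb1 through PBS arrays alone. Their calls are not evenly set against the share over all genes. Shares of values above or below 0 are open to the same effect in lists that hold such genes. P-values are two-sided, with Benjamini-Hochberg adjustment over the 27864 probes and a threshold of 0.05. The fit was tested on simulated data. A gene is given by its brightest probe over the female arrays.

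Sex, treatment and replicate number came from the labels, and the slide from the file headers. The label fields disagree on the trial of female meth mice 3 and 4 and PBS mouse 3, and the methods describe 1 trial in females. Same-numbered female arrays share a slide, and their deviations from the group means correlated over 24593 probes at 0.30, 0.43 and 0.66. Across slides 1 and 2 the values were higher than the first pair of these, 0.61 for meth 1 with PBS 2 and 0.51 for meth 2 with PBS 1. Pairs of an array of slide 4 with one of slides 1 or 2 gave -0.64 to -0.31. The values thus set slide 4 apart and do not show a pairing by number or slide within slides 1 and 2. Precision is limited by having 7 arrays.

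The named genes are, in each direction, the 15 with the largest change among called genes well above background on all 7 arrays whose groups did not overlap, up to 5 called genes that were not, in each list the called genes and up to 3 others with the largest change, the 5 largest called differences between the sexes, and the genes the paper names for females. Hsf1, Dynlrb2, Stambpl1 and 1700022A21Rik were added after their values were seen, and 2 genes that the rule names are not reported here. The members and the 51 lists were chosen with earlier results of these data known. For a fold written "at least", the undetected group was set at each array's lowest detected signal, or at the probe's own signal if that was larger. Alternatives changed the block, the arrays, the scaling, the background correction (normexp, offset 50, on median pixel signals), the filter, the table used and the test (the methods' t-test), and left out each female array.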

Additional observations from a re-analysis of the deposited data

Results flagged for a closer look

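In 4 of the 104 genes examined, 1 female meth array lay apart from the other 3 by a gap that, as a share of the range of the 4 arrays, was above the critical value of Dixon's test, which chance exceeds in about 1 in 20 groups. The share of the range was 0.930 for Dusp1, a phosphatase gene induced early by stress, whose log2 signal on meth array 1 was -5.83 against 1.43 to 1.98 on the other 3 and 1.65 to 2.00 after PBS. It was 0.904 for Gm5458, 0.892 for Rasl11a and 0.877 for Tcap, and in these 3 the array apart was meth 3.

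The response differed between females and males in 13 genes by the interaction test of limma. The female minus male log2 fold change was -10.80 for Scgb1a1, -8.94 for Cyp2a5, -7.86 for Cyp2a4, -7.41 for Bpifa1, -6.90 for Ltf, -5.89 for Sftpd and -3.89 for Dynlrb2, a dynein light chain gene, and these are airway, lung or ciliated cell genes. It was 3.05 for Mup6, 1.46 for Hspa1a, 1.29 for Hspa1b and 0.94 for Dnaja1, and -0.98 for Stambpl1 and 0.63 for 1700022A21Rik. The Mup6 value rests on dim signals in female PBS hearts and in both male groups. The part of airway tissue in the samples in these values was not tested.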

How the results depend on the processing

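All 129 called genes kept their sign within each slide, and of the 50 called genes named, 48 kept it in every alternative run, the exceptions being Adamts4 (0.0123) and Il12rb1 (0.0926) under normexp correction. The genes were called from these same arrays, so a kept sign is in large part a product of the selection. Counts of calls moved far more. The 425 probes called for meth against PBS became 62 with no block, 212 with the trial as covariate, 104 with the replicate block in place of the slide, 10 with the 7 female arrays alone, 60 with normexp, 273 with quantile normalization and 179 with no filter. By the methods' t-test, paired or unpaired, 0 passed after Benjamini-Hochberg adjustment (2775 and 2293 probes at an unadjusted p under 0.05), and with slides 1 and 2 alone, a fit chosen after seeing the data, 0 did by limma (2557). Leaving out 1 array gave 40 to 256. For the 389 probes well above background on all 7 arrays the values in that order were 51, 186, 87, 7, 58, 245, 143, 0, 0 and 0, and 32 to 226 without 1 array. The 26 probes whose response differed between the sexes became 2 with the replicate block, 56 with the slide as a random block, 51 with a filter on 3 of 15 arrays, 0 with slides 1 and 2 alone and 2 to 18 without 1 array.

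The 7 heat shock genes became 3 with no block, with the trial, with the replicate block and with normexp, 1 with the female arrays alone, 4 with no filter, 0 by either t-test and 0 on slides 1 and 2, and 3 to 5 without 1 array. The 5 clock genes became 2 with no block and with the trial, 0 with the replicate block, 1 with the female arrays alone, 3 with no filter, 0 by either t-test and 0 on slides 1 and 2, and 0 to 4 without 1 array. The cause of these shifts was not tested.

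Among genes that did not pass, Hsf1 turned to 0.025 with no block, with the trial or by the unpaired t-test, 0.0021 with the replicate block, by the paired t-test or without meth 4, 0.0614 with the median shift, and 0.0093 without PBS 3 or on slides 1 and 2, with a range of -0.087 to 0.018 when 1 array was left out. Dusp1 turned to 0.0872 without meth 1 and reached -3.83 without PBS 3, Cd22 to 0.18 with normexp, and the difference between the sexes for Stambpl1 to 0.046 with normexp. Dim transcripts have only bounds, and 7 arrays limit the rest.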
